A study of Mus musculus with 8 samples.

Results

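The genes described here belong to families of enzymes that mostly attach glutathione, glucuronic acid or sulfate to other molecules. They comprise 21 glutathione transferase genes (Gsta, Gstk, Gstm, Gsto, Gstp, Gstt and the microsomal Mgst). The others are 10 UDP-glucuronosyltransferase genes (Ugt2 and Ugt3) and 21 sulfotransferase genes (Sult). The name glucuronosyltransferase is used for all 10, although the human counterpart of Ugt3a1 uses UDP-N-acetylglucosamine. All the genes were picked out by gene symbol, from probe sets annotated with exactly 1 symbol, and make up 52 of the 22180 genes tested. The families themselves were chosen with earlier results of these data known. A further 9 probe sets carried several symbols with a member of these families among them and were not used. Both Ugt1 probe sets were of that kind, so no Ugt1 gene is included. RNA came from the middle colon of 4 Trim58 knockout mice (Trim58-/-, KO) and 4 wild type mice (Trim58+/+, WT), all female, 9 weeks old and of the strain labelled C57BL/6-Trim58tm2313Arte. All 8 mice, controls included, drank 4% dextran sulfate sodium (DSS), which injures the colon epithelium, for 7 days and plain water for 5 days, and were killed on day 12. No untreated colon was analysed here. Each mouse gave 1 Affymetrix whole-transcript array, read as log2 signal, and the number of arrays limits the precision.

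Conjugation is the second stage of the handling of drugs, pollutants, hormones, bile acids and reactive lipids. Glutathione transferases join the tripeptide glutathione to electrophiles, glucuronosyltransferases use UDP-glucuronate, and sulfotransferases use the sulfate donor PAPS. The products are more water-soluble and leave the cell through efflux pumps. In the colon these enzymes are known mainly from the absorptive epithelium, which meets dietary and bacterial compounds first, and many of their genes are known targets of the transcription factor Nrf2 or of nuclear receptors such as PXR.

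Array medians lay between 5.73 and 5.83 (log2). Trim58 did not check the labels: its probe set averaged 5.05 ± 0.24 in KO and 5.12 ± 0.09 in WT colons (log2, SD, n = 4 each). Epithelial markers were present in every array, with the mean of 20 absorptive colonocyte genes at 10.66 to 10.85 in KO and 11.00 to 11.20 in WT arrays (log2). KO replicates 1, 2 and 4 carried pancreatic enzyme RNA: the mean of 16 acinar genes was 10.24, 11.18 and 10.88 there, 5.86 in KO replicate 3 and 5.92 to 6.03 in WT arrays. Differences of KO replicate 3 alone from WT are given after the results on the single genes.

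The question asked of the data was whether loss of Trim58 went with other levels of these enzymes in the DSS-treated colon. None of the 52 genes passed the test over all genes (limma, Benjamini-Hochberg adjusted p at 0.05), in either direction. Over all genes, 0.392% were called higher and 0.185% lower. The smallest adjusted p was 0.0695, for Sult1c2. At an unadjusted limma p under 0.05, 15 of the 52 were lower in KO and 0 higher, where 8.1% of all genes were lower and 6.22% higher by the same rule. That count of 15 was 4 with the pancreatic gene mean as covariate, and the share of all genes in that fit was not taken. The median difference was -0.16 in that fit and also for KO replicate 3 alone against WT. These medians are not separate checks, because both rest on KO replicate 3, the only KO array without the pancreatic RNA. In 13 of the 52 (25.0%) all 4 KO arrays lay below all 4 WT arrays, against 5.02% of all genes. The opposite arrangement was found in 0 of the 52 and in 3.79% of all genes. The differences themselves were modest. They ran from -0.84 to 0.21 on the log2 scale, with 36 of 52 below 0 and a median of -0.16, where the median of all genes was -0.01.

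**Figure D1:**
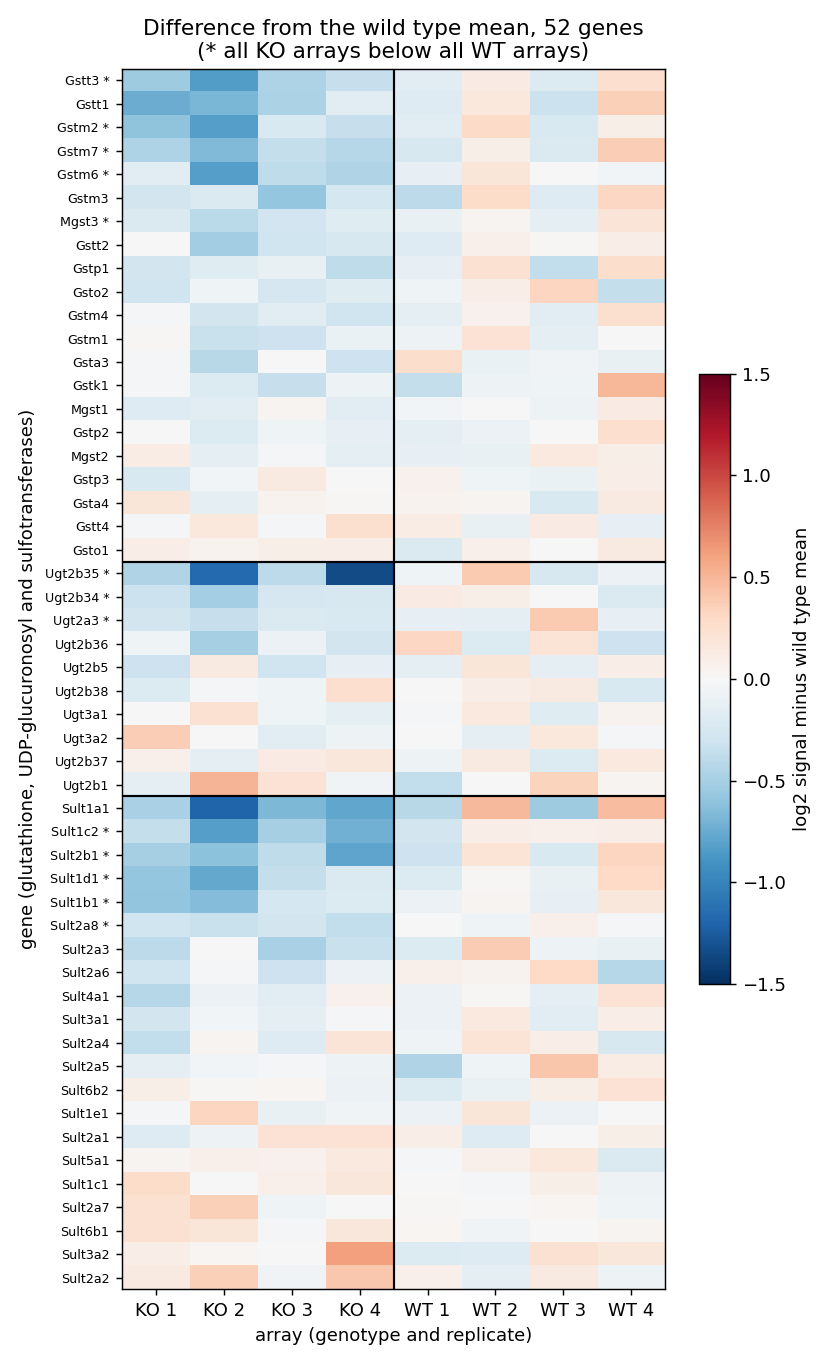
Log2 signal of each of the 52 genes in each array minus the gene's mean over the 4 WT arrays, with KO arrays left and WT arrays right and the families separated by lines. Blue cells are below the WT mean; an asterisk marks the 13 genes in which all KO arrays lay below all WT arrays. Genes are ordered by their difference within each family, from -0.54 (Gstt3), -0.84 (Ugt2b35) and -0.78 (Sult1a1) at the top of each block.

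Many members had signals no higher than genes that the colon does not use. The 95th percentile of 1105 olfactory receptor genes was 5.53 (log2), and 26 of the 52 members averaged more than that over all 8 arrays: 19 glutathione transferases, 2 glucuronosyltransferases and 5 sulfotransferases. This bound is rough, because each probe set has its own scale. Gstm6 was just above it (mean 5.55) through its WT arrays (mean 5.32 in KO and 5.77 in WT), so counts over the members above the bound are descriptions. Of the 13 genes without overlap between genotypes, 11 lay above it, and Sult2a8 and Ugt2a3 lay below. Of all 13976 genes above the bound 6.77% had that arrangement, and nothing is read from the comparison because the bound let Gstm6 in through WT. The other 26, called dim here, may have understated differences, since RMA compresses them near background.

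**Figure D2:**
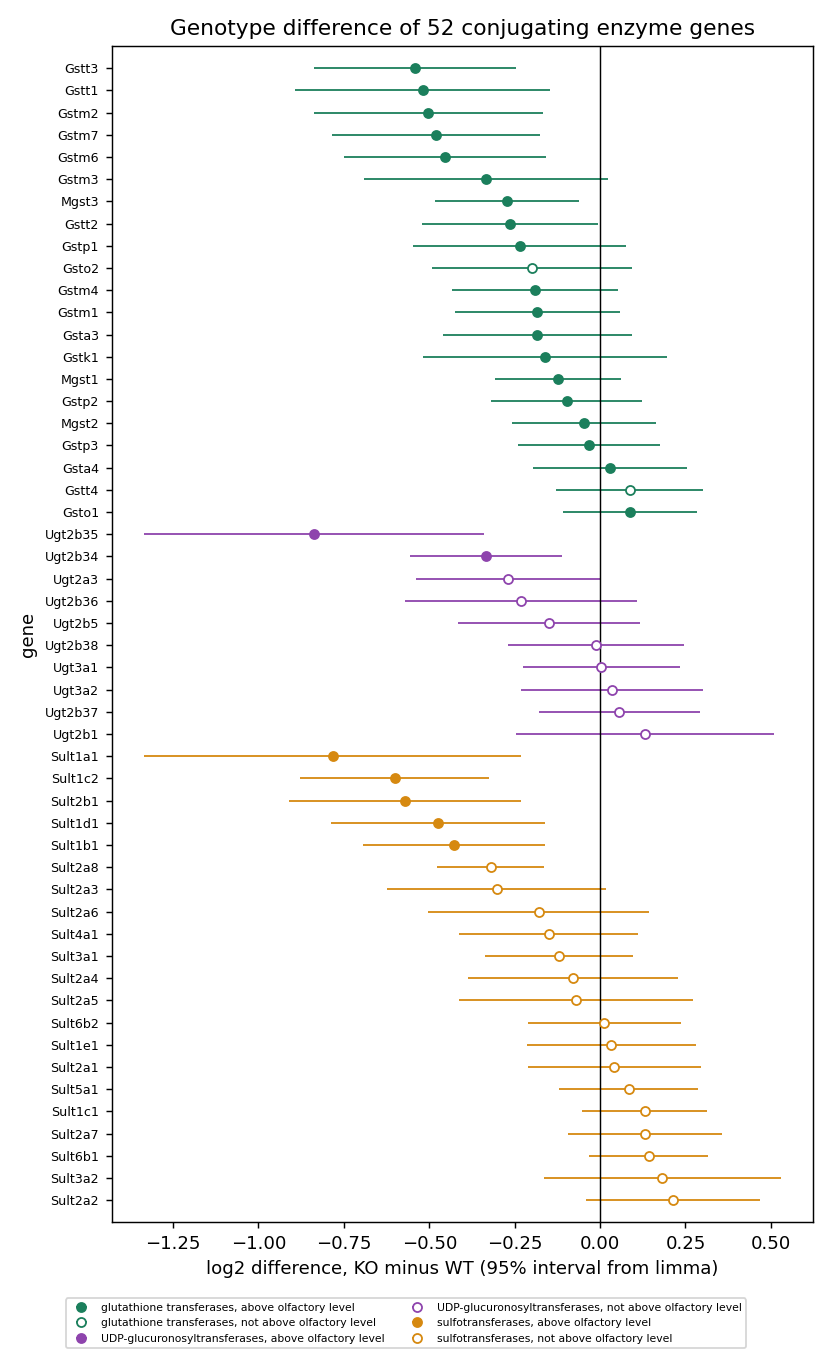
Log2 difference, KO minus WT, for each of the 52 genes with its 95% interval from limma, grouped by family. Filled points are genes whose mean exceeded the 95th percentile of olfactory receptor genes (5.53) and open points those that did not; the differences run from -0.84 (Ugt2b35) to 0.21 (Sult2a2).

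Promoter windows from RefSeq (GRCm38.p6, 250 bases before to 50 after the start site) were held for 45 of the 52 members and searched on both strands for 5 motifs. The core of the antioxidant response element that Nrf2 binds (TGACNNNGC) was in 3 of the 45, Gsta3, Gstm7 and Mgst1, where 14.0% of 27025 genes hold it. The core of the xenobiotic response element of the Ah receptor (TNGCGTG) was in Sult1d1 alone, against 5.84% of genes. AP-1 was searched in a loose form with any middle base (TGANTCA), and an AP-1 match here means this form. It was in 11 of 45 members (24.4%), against 8.97% of genes. These were Gstp1, Gstp2, Mgst2, Sult1b1, Sult1c1, Sult2a8, Sult2b1, Ugt2b1, Ugt2b35, Ugt2b37 and Ugt2b38. Several are related neighbours, so the matches are not independent, and no enrichment was tested. Of the 13 members without overlap, 4 had this match. A motif of the intestinal and liver factor HNF4 (CAAAGTCCA) was in Sult1b1 alone, against 0.555% of genes, and one of HNF1 (GTTAAT, any base, then ATT) was in 5 members, Sult1d1 and 4 dim Sult2a genes, against 0.470%. A match is a run of letters and not a measured binding site. Of the 11 members without overlap that lay above the olfactory bound, 5 had a match, and their windows are shown. The share of all genes, or of all members, with a match to any of the 5 motifs was not taken. Nothing about these genes is therefore read from the 5 of 11. Capitals mark the matches, which do not overlap each other. The windows are Gstm7 at chr3:107931565-107931864 (minus strand, antioxidant response element core), Sult1b1 at chr5:87536173-87536472 (minus strand, AP-1 and HNF4), Sult1d1 at chr5:87568957-87569256 (minus strand, HNF1 and xenobiotic response element core), Sult2b1 at chr7:45742429-45742728 (minus strand, AP-1) and Ugt2b35 at chr5:87000610-87000909 (plus strand, AP-1).
Gstm7: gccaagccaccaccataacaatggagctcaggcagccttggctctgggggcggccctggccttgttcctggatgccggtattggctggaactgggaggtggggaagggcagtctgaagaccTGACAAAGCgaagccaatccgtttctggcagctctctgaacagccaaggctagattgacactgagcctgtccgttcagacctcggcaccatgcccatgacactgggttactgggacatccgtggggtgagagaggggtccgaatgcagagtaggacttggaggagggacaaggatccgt
Sult1b1: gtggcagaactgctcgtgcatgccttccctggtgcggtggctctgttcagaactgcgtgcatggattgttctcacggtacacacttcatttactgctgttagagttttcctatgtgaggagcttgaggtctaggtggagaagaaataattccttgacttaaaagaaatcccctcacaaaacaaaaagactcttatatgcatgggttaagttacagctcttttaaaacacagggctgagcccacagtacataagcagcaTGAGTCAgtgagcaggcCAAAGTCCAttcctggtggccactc
Sult1d1: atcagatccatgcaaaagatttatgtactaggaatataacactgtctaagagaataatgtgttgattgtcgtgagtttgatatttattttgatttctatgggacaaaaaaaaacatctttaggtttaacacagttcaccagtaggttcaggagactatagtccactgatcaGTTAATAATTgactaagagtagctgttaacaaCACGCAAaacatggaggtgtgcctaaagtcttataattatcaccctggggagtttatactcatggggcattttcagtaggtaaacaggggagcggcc
Sult2b1: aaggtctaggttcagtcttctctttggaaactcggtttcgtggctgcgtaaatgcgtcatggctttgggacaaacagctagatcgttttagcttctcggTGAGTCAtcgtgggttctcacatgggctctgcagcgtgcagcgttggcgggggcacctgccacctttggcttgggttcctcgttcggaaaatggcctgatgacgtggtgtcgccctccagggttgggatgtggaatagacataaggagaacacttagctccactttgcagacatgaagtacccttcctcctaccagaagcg
Ugt2b35: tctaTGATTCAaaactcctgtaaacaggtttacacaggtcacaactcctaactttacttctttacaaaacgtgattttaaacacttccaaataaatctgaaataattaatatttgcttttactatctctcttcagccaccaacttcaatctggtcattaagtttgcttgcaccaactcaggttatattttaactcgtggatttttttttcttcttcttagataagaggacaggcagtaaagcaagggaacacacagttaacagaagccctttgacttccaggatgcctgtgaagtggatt
The Gstm7 match began at base -129, counted from the start site. In Sult1d1 the HNF1 match began at base -79 and the xenobiotic response element match, on the opposite strand, at base -47. The AP-1 and HNF4 matches of Sult1b1 began at bases 9 and 26, after the start site, and the AP-1 matches of Sult2b1 and Ugt2b35 at bases -151 and -246. The remaining 6 of the 11 members had none of the 5 motifs in the windows searched.

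The sulfotransferases included the smallest p-values of the 52 genes. Sult1c2, a cytosolic enzyme that sulfates phenolic compounds, read 7.37, 6.90, 7.24 and 7.01 in KO replicates 1 to 4 and 7.46, 7.83, 7.81 and 7.83 in WT replicates 1 to 4 (log2). The genotypes did not overlap, and WT replicate 1 was the WT array nearest to the KO arrays. The difference was -0.60 ± 0.13 (SE; 95% interval -0.88 to -0.32), which is 1.52-fold lower in KO (limma adjusted p = 0.0695). Without WT replicate 1 it was -0.69 and passed (limma adjusted p = 0.0402), the single call of a member in any of the fits with 1 array left out.

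Sult1a1, the main phenol sulfotransferase, had the largest difference of the family. It read 9.85, 9.13, 9.66 and 9.55 in KO replicates and 9.91, 10.81, 9.80 and 10.79 in WT replicates (log2). WT replicates 2 and 4 stood well above WT replicates 1 and 3, which were close to the KO arrays, and the genotypes overlapped. The difference was -0.78 ± 0.25 (SE; limma adjusted p = 0.176).

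Sult2b1, which sulfates cholesterol and pregnenolone, read 6.53, 6.41, 6.64 and 6.23 in KO and 6.72, 7.24, 6.80 and 7.35 in WT replicates (log2; difference -0.57 ± 0.15 SE, limma adjusted p = 0.124). The same WT arrays, 2 and 4, were the higher ones, and no KO array reached a WT array. Sult1d1, which sulfates catecholamines, and Sult1b1, which sulfates thyroid hormones, are neighbours in the reference gene order. Sult1d1 read 9.39, 9.20, 9.61 and 9.75 in KO and 9.76, 9.98, 9.86 and 10.27 in WT replicates (log2; difference -0.48 ± 0.14 SE, limma adjusted p = 0.151). KO replicate 4 came within 0.005 of WT replicate 1, so the absence of overlap rests on a very small gap. Sult1b1 read 8.56, 8.50, 8.89 and 8.95 in KO and 9.07, 9.19, 9.03 and 9.32 in WT replicates (log2; difference -0.43 ± 0.12 SE, limma adjusted p = 0.137). Its genotypes were separated by 0.09.

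The other 16 sulfotransferase genes were dim. They include Sult1e1, which sulfates oestrogens, the 8 Sult2a genes, whose products sulfate bile acids and steroids, and Sult4a1, known from brain. Their differences ran from -0.32 (Sult2a8) to 0.21 (Sult2a2), with 7 below 0 and 9 above. Sult2a8, named after its values were seen, had signals of 2.53, 2.51, 2.56 and 2.47 in KO and 2.85, 2.78, 2.92 and 2.81 in WT replicates (log2; difference -0.32 ± 0.07 SE, limma adjusted p = 0.0792). Its genotypes did not overlap, yet its mean of 2.68 was lower than that of a typical olfactory receptor gene (median 3.26). Members of the Sult2a group are similar in sequence, and hybridisation of a relative's RNA was not tested.

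**Figure D3:**
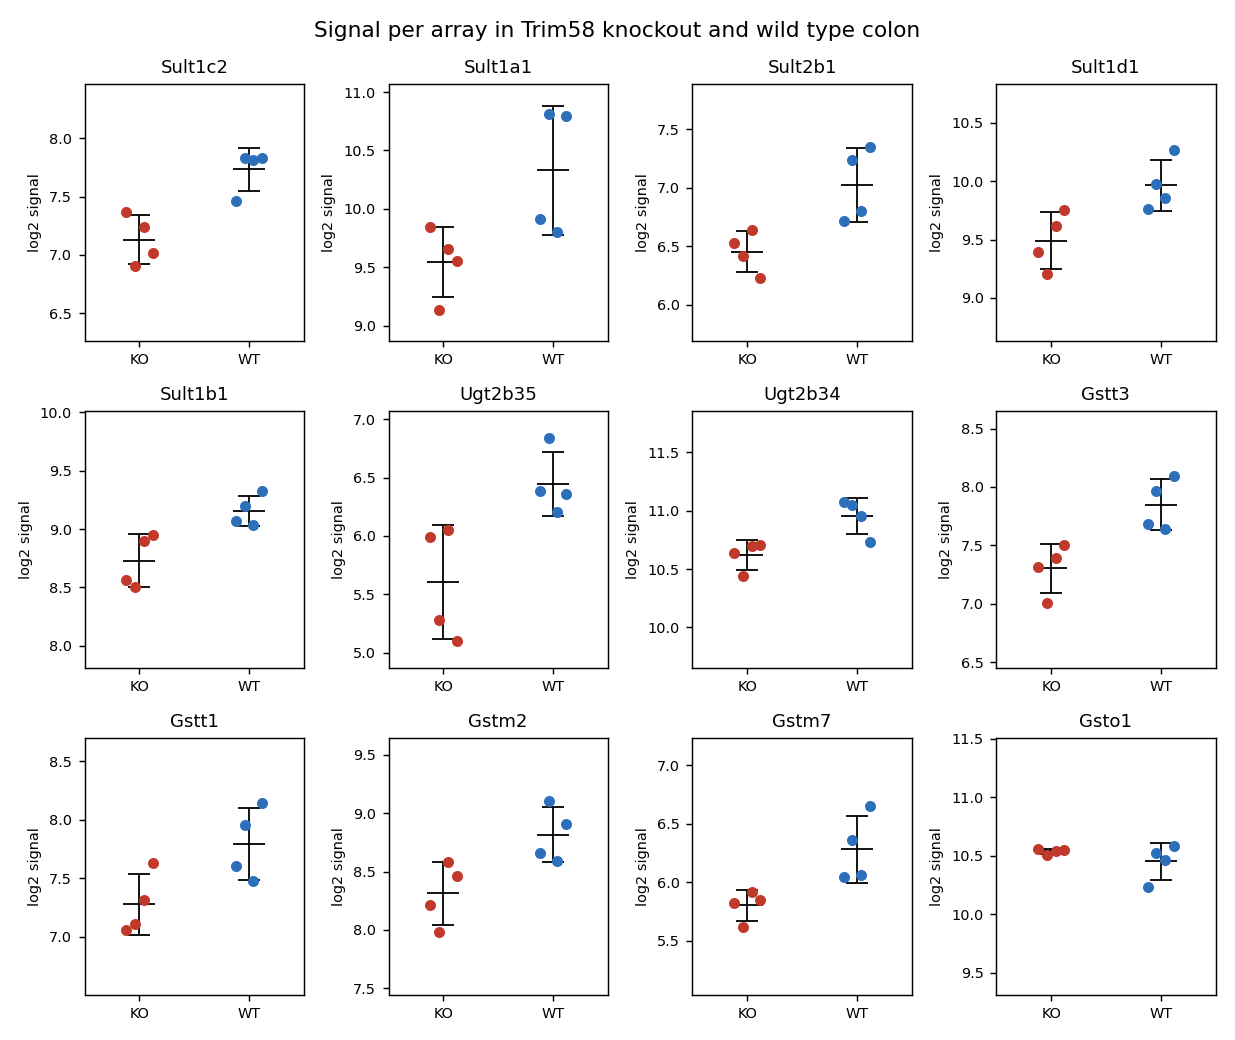
Log2 signal of 12 genes in each array, KO left (red) and WT right (blue); points are arrays in the order of their replicate number, and bars are the mean and SD of 4 arrays. Every panel spans the same range of log2 units. Sult1a1 shows its WT arrays in separate pairs, and Gsto1 is the panel in which KO arrays are tightest (10.51 to 10.56).

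Among the glucuronosyltransferases, enzymes of the endoplasmic reticulum, the largest differences were those of Ugt2b35 and Ugt2b34, the 2 genes above the olfactory bound. Ugt2b35 read 5.99, 5.28, 6.05 and 5.10 in KO replicates and 6.38, 6.84, 6.20 and 6.36 in WT replicates (log2). All KO arrays were below all WT arrays, and the KO arrays lay in separate pairs, with replicates 2 and 4 lowest. The difference of -0.84 ± 0.22 (SE; 95% interval -1.34 to -0.34) was the largest of all 52 and equals 1.79-fold lower in KO (limma adjusted p = 0.124). In KO replicate 3 the shift from the WT mean was -0.39, and in the other KO replicates -0.99 on average. Ugt2b34 read 10.63, 10.44, 10.70 and 10.71 in KO and 11.07, 11.05, 10.96 and 10.73 in WT replicates (log2; difference -0.33 ± 0.10 SE, limma adjusted p = 0.155). Here WT replicate 4 was the lowest WT array and lay only 0.02 above KO replicate 4.

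The other 8 glucuronosyltransferase genes were dim, with 4 differences below 0 and 4 above. Ugt2a3 averaged 2.62 ± 0.06 in KO and 2.89 ± 0.26 in WT (log2, SD, n = 4 each; limma adjusted p = 0.352), and WT replicate 3 alone stood high at 3.28. Ugt2b36, Ugt2b5 and Ugt2b1 had differences of -0.23, -0.15 and 0.13 with limma adjusted p of 0.552, 0.639 and 0.787. Ugt3a1, whose human counterpart uses UDP-N-acetylglucosamine, averaged 4.41 ± 0.16 in KO and 4.41 ± 0.14 in WT (log2, SD, n = 4 each; 95% interval of the difference -0.23 to 0.23).

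The glutathione transferases are described by class, and differences between classes were not tested. All 6 measured mu class genes (Gstm), which lie near each other in the reference gene order, had differences below 0. These ran from -0.50 to -0.18, with a median of -0.39. Hybridisation of one Gstm gene's RNA to another's probes was not tested, so the 6 may not be separate results. Gstm2 read 8.21, 7.99, 8.59 and 8.47 in KO and 8.66, 9.10, 8.59 and 8.91 in WT replicates (log2; difference -0.50 ± 0.15 SE, limma adjusted p = 0.155). KO replicate 3 and WT replicate 3 were practically equal, 0.004 apart. Gstm7 read 5.82, 5.62, 5.92 and 5.85 in KO and 6.05, 6.36, 6.06 and 6.65 in WT replicates (log2; difference -0.48 ± 0.14 SE, limma adjusted p = 0.140). Gstm6 read 5.61, 4.95, 5.39 and 5.32 in KO and 5.65, 5.95, 5.76 and 5.73 in WT replicates (log2; difference -0.45 ± 0.13 SE, limma adjusted p = 0.148). KO replicate 1 was close to WT for Gstm6, and KO replicate 2 was the lowest. Gstm3, Gstm4 and Gstm1 overlapped between genotypes.

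In the theta class, Gstt3 and Gstt1 gave nearly the same profile. Gstt3 read 7.32, 7.01, 7.39 and 7.50 in KO and 7.68, 7.97, 7.64 and 8.09 in WT replicates (log2; difference -0.54 ± 0.13 SE, 95% interval -0.84 to -0.25, limma adjusted p = 0.101). No KO array reached a WT array. Gstt1 read 7.06, 7.10, 7.32 and 7.63 in KO and 7.60, 7.95, 7.48 and 8.15 in WT replicates (log2; difference -0.52 ± 0.17 SE, limma adjusted p = 0.184). KO replicate 4 lay above WT replicates 1 and 3. These relatives are similar in sequence, and hybridisation of one gene's RNA to the other's probes was not tested. The other theta genes, outside the naming rule, overlapped between genotypes. Gstt2 differed by -0.26 and the dim Gstt4 by 0.09 (log2, limma adjusted p = 0.338 and 0.751).

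Of the other classes, Mgst3 alone had no overlap between genotypes. The alpha class genes Gsta3 and Gsta4, outside the naming rule, differed by -0.18 and 0.03 (log2, limma adjusted p = 0.563 and 0.936). Mgst3, a microsomal enzyme that reduces lipid hydroperoxides with glutathione, averaged 9.51 ± 0.10 in KO and 9.78 ± 0.15 in WT (log2, SD, n = 4 each; difference -0.27 ± 0.09 SE, limma adjusted p = 0.213). Gstp1 of the pi class averaged 9.75 ± 0.11 in KO and 9.99 ± 0.30 in WT (log2, SD, n = 4 each; limma adjusted p = 0.502). Gstk1, found in mitochondria and peroxisomes, averaged 9.44 ± 0.15 in KO and 9.60 ± 0.36 in WT (log2, SD, n = 4 each; limma adjusted p = 0.712). Gsto1, an omega class enzyme that reduces dehydroascorbate, averaged 10.54 ± 0.02 in KO and 10.45 ± 0.16 in WT (log2, SD, n = 4 each). Its difference was 0.09, with a 95% interval of -0.11 to 0.28 (limma adjusted p = 0.719). The genotypes overlapped for Gstp1, Gstk1 and Gsto1, and the intervals of Gstp1 and Gstk1 (-0.55 to 0.08 and -0.52 to 0.19) leave room for differences as large as those of the Gstm genes.

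Within a genotype, the order of the arrays was compared across members. WT replicates 2 and 4 were the 2 highest WT arrays in 23 of the 52 (44.2%), against 16.7% of all genes. KO replicate 2 was the lowest KO array in 20 of the 52 (38.5%), against 27.7% of all genes. These shares are descriptions, with no test. Averaged over all 52 members, signal was 5.76, 5.70, 5.76 and 5.78 in KO replicates and 5.83, 5.99, 5.91 and 5.99 in WT replicates (log2). Every KO mean thus lay below every WT mean. The median shift of the 52 members from the WT mean was -0.16 in KO replicate 3, which lacks the pancreatic RNA. The mean of the other KO replicates gave a median shift of -0.14.

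Single genes moved more than this median. For KO replicate 3 alone against WT, the log2 difference of Gstm2 was -0.23, against -0.50 with all KO arrays, and that of Ugt2b35 was -0.39, against -0.84. Those of Gstp1 (-0.11, against -0.24), Sult1b1 (-0.26, against -0.43) and Ugt2b36 (-0.09, against -0.23) were also smaller by over 1.5 times. Gstk1 (-0.35, against -0.16) and Ugt2b5 (-0.30, against -0.15) were further from 0 in KO replicate 3. Ugt2b1 was 0.22, against 0.13. Among the members with the smallest p, Sult1c2 was at -0.49 and Gstt3 at -0.46 in KO replicate 3. With the pancreatic gene mean as covariate, which rests on the same KO array, Gstm2 was at -0.23 and Ugt2b35 at -0.34. Sult2b1 was at -0.38 with the covariate, against -0.57 without it.

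Marker lists of other cell types were read in the same arrays. The 11 goblet cell genes averaged 10.84 to 11.13 in KO and 11.19 to 11.39 in WT arrays, and the 7 enteroendocrine genes 7.88 to 8.47 in KO and 8.60 to 8.98 in WT arrays (mean log2). KO replicate 3 was at 11.13 for the goblet and 8.43 for the enteroendocrine list. Of 20 absorptive colonocyte genes, 2 passed the limma test as lower in KO, Car4 and Slc37a2, and 7 had all KO arrays below all WT arrays, against 5.02% of all genes. Neither of the 2 colonocyte calls remained in the fit without KO replicate 1, 2 or 4 or without WT replicate 1, 2 or 4, and 0 passed for KO replicate 3 alone. KO replicate 3 had a colonocyte mean of 10.84. Of 14 neutrophil genes, 11 passed as higher, with list means of 7.33 to 8.21 in KO and 5.48 to 6.00 in WT arrays. KO replicate 3 had a mean of 7.82, and for it alone 7 of the 14 passed, among 14 higher calls over all genes. Without WT replicate 2, 7 passed among 24 higher calls, and with the pancreatic gene mean as covariate 2 passed, which were all the calls of that fit. Of the goblet cell genes, 1 passed as lower, Capn9. No goblet gene passed in the fits without 1 array other than the one without KO replicate 3, nor with the covariate or for KO replicate 3 alone. None of the enteroendocrine, smooth muscle or hepatocyte genes passed in the comparison of all arrays. Smooth muscle genes averaged 9.63 to 10.20 in KO and 9.98 to 10.40 in WT arrays, and 8 hepatocyte genes 5.71 to 6.05 in KO and 5.86 to 6.09 in WT arrays. The part of these cell types in the enzyme differences was not tested. In whole tissue, fewer cells of a type and less RNA per cell cannot be told apart.

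**Figure D4:**
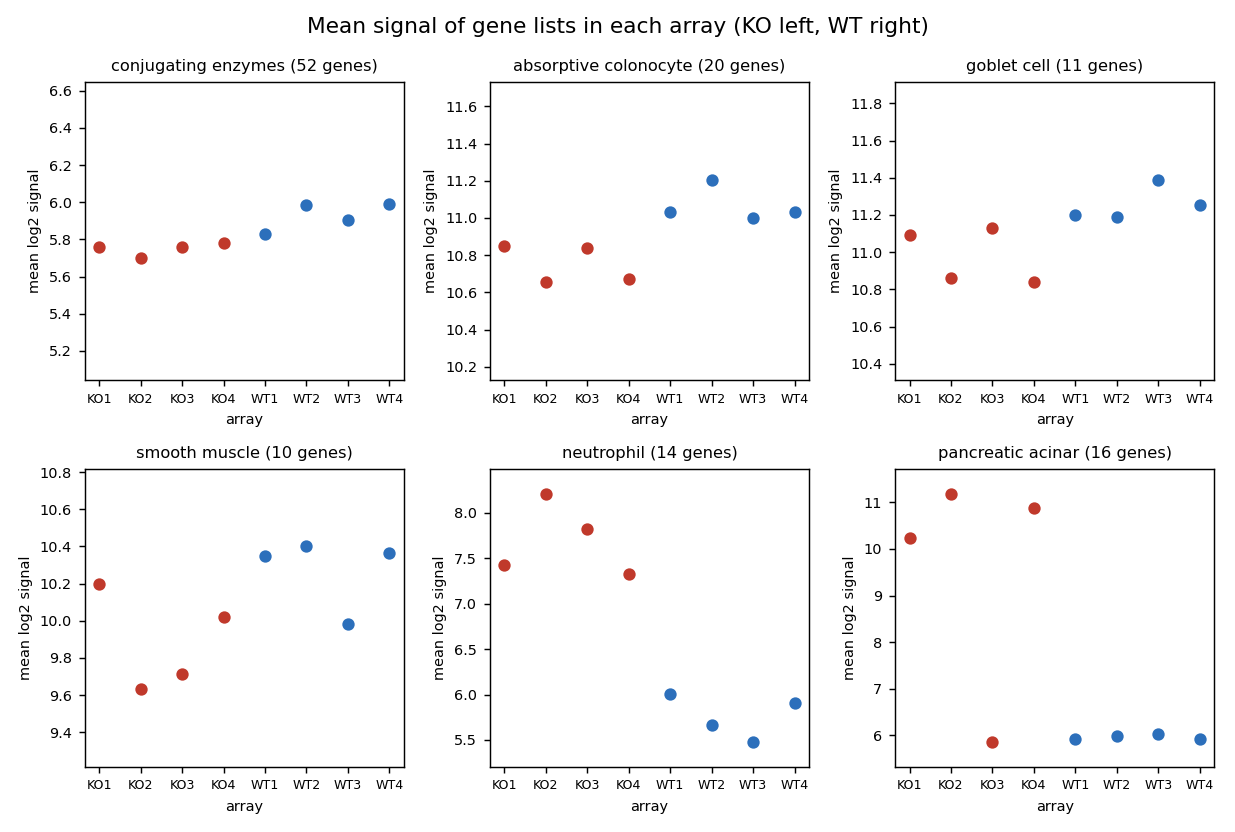
Mean log2 signal of all 52 conjugating enzyme genes and of 5 marker lists in each array, with KO arrays left (red) and WT arrays right (blue). Enzyme, colonocyte and goblet cell means are lower in every KO array than in any WT array, and neutrophil means are higher in every KO array. Pancreatic acinar means are high in KO replicates 1, 2 and 4 only. Each panel has its own log2 axis.

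Supporting genes were examined as 7 lists. These covered cofactor supply, the Nrf2 system, receptors and epithelial factors, conjugate efflux and other conjugating enzymes. For glutathione supply and recycling, 1 of 13 measured genes passed as higher and 0 as lower. This was Slc7a11, the cystine importer that feeds glutathione synthesis. It read 6.45, 7.15, 6.85 and 6.17 in KO and 5.61, 5.32, 5.20 and 4.89 in WT replicates (log2), every KO array above every WT array. Slc7a11 rose by 1.40 ± 0.21 (log2, SE), or 2.64-fold (limma adjusted p = 0.0206). The call held in 4 of 8 fits without 1 array and ended without KO replicate 2 or WT replicate 2, 3 or 4 (limma adjusted p of 0.0517, 0.0833, 0.0522 and 0.0686). It also ended with the pancreatic gene mean as covariate (limma adjusted p = 0.486) and for KO replicate 3 alone (limma adjusted p = 0.193), where the difference itself was 1.54 and 1.60. Its 2 probe sets disagreed, with differences of 1.40 and 0.10. Pgd, which makes NADPH, had a difference of 0.24 (limma adjusted p = 0.224).

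Of 19 Nrf2 system genes and targets outside the families, 1 passed as higher and 0 as lower. This was Hmox1, the inducible haem oxygenase, with 6.74, 7.18, 6.66 and 6.70 in KO and 6.16, 5.94, 5.83 and 6.24 in WT replicates (log2). KO replicate 2 was the highest array, and no KO array was within the WT range. Hmox1 rose by 0.78 ± 0.13 (log2, SE), 1.71-fold (limma adjusted p = 0.0361). Its call held in 1 of 8 fits without 1 array, the one without KO replicate 3, and in the others the limma adjusted p was up to 0.145. With the pancreatic covariate the difference was 0.60 (limma adjusted p = 0.775), and for KO replicate 3 alone 0.62 (limma adjusted p = 0.703). Txnrd1, a thioredoxin reductase, had a difference of 0.30 (limma adjusted p = 0.189). The median difference of the Nrf2 list was -0.02. In 3 of its 19 genes all KO arrays lay above all WT arrays, against 3.79% of all genes, and in 0 below.

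In the remaining 5 lists 0 genes passed in either direction in the comparison of all genes. All KO arrays lay below all WT arrays in 0 of 6 UDP-glucuronate, 2 of 12 PAPS and 2 of 20 receptor list genes. The same held for 1 of 10 efflux and 1 of 12 other enzyme genes, against 5.02% of all genes. In the same order of lists, all KO arrays lay above all WT arrays in 2, 0, 1, 0 and 1 genes, against 3.79% of all genes. For UDP-glucuronate (6 measured), Gusb, which cleaves glucuronides, differed by 0.37 and Ugdh, which makes UDP-glucuronate, by -0.36 (log2; limma adjusted p = 0.0908 and 0.287). For PAPS and sulfate handling (12 measured), the chloride and bicarbonate exchanger Slc26a3 differed by -0.62 and the PAPS synthase Papss1 by -0.40 (log2; limma adjusted p = 0.112 and 0.125). Papss1 read 9.27, 8.99, 9.26 and 9.38 in KO and 9.55, 9.85, 9.49 and 9.63 in WT replicates (log2), without overlap. Among 20 receptors and epithelial factors, Nr1i2, which encodes PXR, and the vitamin D receptor gene Vdr differed by -0.38 and -0.42 (log2; limma adjusted p = 0.0838 and 0.0883). Nr1i2 read 8.24, 8.03, 8.15 and 8.22 in KO and 8.49, 8.56, 8.67 and 8.43 in WT replicates (log2), again without overlap. Of 10 efflux transporters, Abcg2, a pump for sulfate conjugates, differed by -0.36 and Abcb1b by 0.35 (log2; limma adjusted p = 0.0760 and 0.255). Abcg2 passed after a filter on the dimmest genes (limma adjusted p = 0.0484). Of 12 other conjugating enzymes, the methyltransferase gene Nnmt differed by 0.46 and the acetyltransferase gene Nat2 by -0.29 (log2; limma adjusted p = 0.0832 and 0.233).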

How the data were processed

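The authors deposited log2 values for 41345 probe sets, made by RMA in Affymetrix Expression Console 1.4 per the submitters' processing notes; RMA corrects background, equalises the distributions of the arrays and summarises probes. Biotin-labelled cDNA was made from 200 ng of total RNA, per the labels' protocols. The build behind the array design, and any filter, were not given in the sources used; scanner files were not analysed here. A single symbol was annotated for 23521 probe sets, several for 1814 and none for 16010. Names were updated by Entrez identifier in the RefSeq table (23328 found), and where a gene had several probe sets the one with the highest mean was kept, leaving 22180 genes. Each of the 52 members had 1 probe set. No filter was applied.

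KO was set against WT by limma 3.58.1 (R 4.3.3, no covariate), adjusted over all 22180 genes at 0.05, and the procedure was tested on simulated data. No arrays were identical. Named members were the 5 with the largest difference and the 4 with the highest mean in each family; in each supporting list the 2 genes with the smallest p and those past the test. Members and lists were chosen with earlier results of these data known, and the motifs and the olfactory bound likewise. Alternatives were other variance models, array weights, scalings, probe set rules, a filter on dim genes, a block, a covariate and fits without single arrays.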

Additional observations from a re-analysis of the deposited data

Results flagged for a closer look

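Within the 4 arrays of a genotype, 3 values stood apart from the others by Dixon's criterion for 4 samples, among 70 groups examined; chance flags about 1 group in 20. Sult1c2 in WT replicate 1 (7.46, against 7.81 to 7.83 in the other WT arrays) had a gap of 0.944 of the group's range. Ugt2a3 in WT replicate 3 (3.28, against 2.75 to 2.76) had a gap of 0.966 of the range. Hmox1 in KO replicate 2 (7.18, against 6.66 to 6.74 in the other KO arrays) had a gap of 0.845 of the range.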

How the results depend on the processing

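No member was called higher in any of the 18 alternatives, and none lower except Sult1c2 without WT replicate 1; without single arrays the count called lower was 0 to 1. The smallest adjusted p of any member was 0.0503 with a variance trend and robust variances, 0.0502 after a filter on dim genes, 0.147 with the replicate block, 0.837 with the pancreatic gene mean as covariate and 0.788 for KO replicate 3 alone. The median difference of the members was -0.27 after that filter, where 27 members were left, and -0.17 to -0.11 without single arrays. Same-numbered replicates did not deviate together over all genes (correlations -0.16 to 0.05). These values cannot settle whether the numbers pair the mice, because the pancreatic RNA of KO replicates 1, 2 and 4 enters them. A replicate block cannot change any difference in this balanced design, so its median of -0.16 tells nothing. With the block 18 members were lower at an unadjusted p under 0.05, against 15 in the main comparison. That count, chosen after the data were seen, was 4 with the pancreatic covariate, where fewer degrees of freedom were left, and 14 to 18 without single arrays. The share of all genes lower at an unadjusted p under 0.05 was taken in the main comparison only (8.1%). So the counts of the alternatives cannot be set against their own background. The median was -0.16 with the covariate and for KO replicate 3 alone, and both values rest on that array. Without KO replicate 3, 2 members (Sult2a2 and Sult6b1) were higher at that p. The count without overlap, also added after seeing the data, was 11 after repeated quantile normalization and 12 with equal array medians. Without single arrays it was 13 to 16, which shows no stability because leaving out an array cannot create overlap. The dimness of 26 members limits what can be said of them.

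Among values of the 21 named members under alternatives, 363 kept their direction and stayed short of the threshold, 9 turned sign and 1 (Sult1c2) newly passed. Sizes moved by over 1.5 times for some, such as Gstm2 and Ugt2b35 for KO replicate 3 alone. The 363 is no measure of stability. No member passed in the main comparison, and each had 1 probe set, so the probe set rules repeat its difference. The variance trend, the filter on dim genes and the block cannot change a difference either. The log2 difference of Ugt3a1 was -0.0336 with array weights, -0.000241 after repeated quantile normalization, -0.00312 with equal array medians, -0.0750 with the covariate, -0.0651 for KO replicate 3 alone and -0.0711 to 0.0540 without single arrays. That of Gstk1 was -0.280 to 0.00284 without single arrays.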
